A study of Rattus norvegicus with 6 samples.

Results

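The genes described are those of the major histocompatibility complex (MHC) class I pathway of the rat. Members were chosen by name: every probe whose transcript accession maps to a rat symbol that starts with RT1-, leaving out the class II symbols, plus 14 named genes of peptide supply and loading. On the array 29 heavy chain genes (36 probes) and 12 of the 14 named genes (12 probes) were found, which makes 41 of 15168 named genes. No probe mapped to Erap1, a peptide-trimming enzyme of the endoplasmic reticulum, or to Nlrc5, the transactivator of class I genes. Primary Leydig cells of Sprague-Dawley rats, the androgen-producing cells of the testis interstitium, were given exosomes, small vesicles shed by cells, at 5 µg/ml for 24 h (3 samples, called exosome-treated) or no exosomes (3 samples, called untreated). The exosomes came from Sertoli cells, the supporting cells of the seminiferous tubules, also primary and from rat. Both groups were kept in F12/DMEM with fetal bovine serum at a temperature below that of the body, and each sample was read on 1 one-colour array. Since no label ties a replicate to an animal or a culture of its own, a p-value here speaks only of the spread among the 6 samples, which may be technical.

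Class I molecules display peptides from inside the cell to CD8+ T cells and to receptors of natural killer cells. Each consists of a polymorphic heavy chain, in the rat encoded by RT1 genes, and the invariant light chain beta-2-microglobulin. The immunoproteasome cuts proteins into peptides, the transporter TAP carries these into the endoplasmic reticulum, and a complex of tapasin, calreticulin and the oxidoreductase Pdia3 loads them onto the heavy chain. Interferons and NF-kB are known to raise transcription of many of these genes together. RT1-A genes encode the classical molecules and the RT1-CE, M, N, S and T genes mostly the non-classical ones, and many of the copies are close in sequence.

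Promoters of some members are shown because heavy chain genes moved largely together and because short sequence elements are shared by some of them and not by others. The windows are the 250 bases before the annotated gene start from RefSeq (GRCr8), printed 5′ to 3′ on the strand of the gene, and 36 of the 41 members had one. Capitals mark matches on either strand to the NF-kB core (GGGA, any 4 bases, CC) or to the core of the interferon-stimulated response element (ISRE: GAAA, any 2 bases, GAAA), and matches may overlap. RT1-A2, RT1-CE11 and RT1-CE4 fell in exosome-treated cells. RT1-T24-4, a heavy chain gene with a difference of 0.18 that did not pass the test, is set against them. Tap1 and Tapbp fell, and B2m is shown as a loading gene that did not pass the test.
RT1-A2 (chr20:4872621-4872870, plus strand): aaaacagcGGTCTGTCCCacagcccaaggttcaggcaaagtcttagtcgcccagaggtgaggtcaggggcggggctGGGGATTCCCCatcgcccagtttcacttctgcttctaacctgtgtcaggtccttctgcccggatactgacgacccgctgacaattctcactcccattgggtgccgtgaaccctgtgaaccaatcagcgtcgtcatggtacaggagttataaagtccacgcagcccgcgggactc
RT1-CE11 (chr20:3363199-3363448, minus strand): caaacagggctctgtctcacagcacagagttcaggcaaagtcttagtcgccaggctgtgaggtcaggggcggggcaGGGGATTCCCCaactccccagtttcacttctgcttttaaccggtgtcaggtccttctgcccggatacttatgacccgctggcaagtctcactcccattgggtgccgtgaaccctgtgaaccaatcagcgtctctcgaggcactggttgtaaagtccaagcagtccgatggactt
RT1-CE4 (chr20:3509157-3509406, minus strand): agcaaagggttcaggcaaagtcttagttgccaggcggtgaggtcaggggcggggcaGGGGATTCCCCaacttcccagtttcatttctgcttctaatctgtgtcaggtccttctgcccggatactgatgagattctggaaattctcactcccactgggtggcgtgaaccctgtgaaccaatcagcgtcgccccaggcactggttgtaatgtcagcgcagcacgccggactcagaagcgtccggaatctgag
RT1-T24-4 (chr20:2689083-2689332, plus strand): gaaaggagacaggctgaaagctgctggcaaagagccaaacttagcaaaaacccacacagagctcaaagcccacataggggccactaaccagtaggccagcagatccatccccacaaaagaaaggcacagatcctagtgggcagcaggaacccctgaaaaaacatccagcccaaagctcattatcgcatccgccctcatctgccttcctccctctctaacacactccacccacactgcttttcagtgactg
Tap1 (chr20:4668544-4668793, minus strand): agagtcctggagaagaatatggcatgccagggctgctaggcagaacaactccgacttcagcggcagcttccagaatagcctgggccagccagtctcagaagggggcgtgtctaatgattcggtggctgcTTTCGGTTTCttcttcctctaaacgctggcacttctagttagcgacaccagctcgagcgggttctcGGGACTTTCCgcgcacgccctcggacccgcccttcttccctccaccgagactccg
Tapbp (chr20:4967878-4968127, minus strand): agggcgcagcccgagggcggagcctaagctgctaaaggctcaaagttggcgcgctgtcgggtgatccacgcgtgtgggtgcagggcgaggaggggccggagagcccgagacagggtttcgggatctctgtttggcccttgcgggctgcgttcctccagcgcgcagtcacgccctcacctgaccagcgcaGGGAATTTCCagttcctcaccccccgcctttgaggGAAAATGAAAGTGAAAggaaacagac
B2m (chr3:129549080-129549329, plus strand): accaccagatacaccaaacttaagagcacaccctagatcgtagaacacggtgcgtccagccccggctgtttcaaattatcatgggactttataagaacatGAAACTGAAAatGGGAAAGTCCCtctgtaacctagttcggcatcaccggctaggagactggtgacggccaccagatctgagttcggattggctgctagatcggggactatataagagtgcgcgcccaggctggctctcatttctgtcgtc

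The 11-base run GGGGATTCCCC, which holds overlapping NF-kB core matches, 1 on each strand, stood (read on either strand) in the windows of 7 of the 22 tested heavy chain genes with a window, namely RT1-A1, RT1-A2, RT1-CE4, RT1-CE10, RT1-CE11, RT1-CE13 and RT1-CE16. It began between 125 and 194 bases before the annotated start. Among all 33469 RefSeq windows of this length it stood in 20 (0.0598%). It was picked because it was the most frequent capitalised run in heavy chain windows. Heavy chain pairs that both hold it had a median identity of 62.5% after global alignment of the windows (21 pairs, 47.7% to 87.5%), and the other 210 pairs had a median of 44.9%. Of the 7 genes with the run 6 fell, with a median change of −0.69, and of the 15 without it 11 fell, with a median of −0.68. Genes with and without this exact run thus had nearly the same median change. Near forms were counted as without it, such as GGAGATTCCCC in RT1-CE5 and GGGGATTCCTC in RT1-CE3. RT1-CE15, also counted as without it, holds other NF-kB core matches (GGGAATCTCCC), and each of these genes fell. The comparison therefore does not set windows with an NF-kB element against windows that lack one.

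The ISRE core was found in 6 of 11 windows of loading and proteasome genes (Tap1, Tap2, Tapbp, B2m, Psmb10 and Psme2), in 3 of 25 heavy chain windows (RT1-S2, RT1-S3 and RT1-N3) and in 3.41% of all windows. The NF-kB core was found in 11 of 25 heavy chain windows, 4 of 11 loading and proteasome windows and 16.4% of all windows. The Y box core ATTGG was found in 16, in 4 and in 34.0% of them, and the CRE core TGACG, part of the X2 element of class I promoters, in 7, in 4 and in 18.2%. The gamma-activated site core TTCNNNGAA was found in 2, in 1 and in 7.67%. Of the 6 loading genes with an ISRE core, Tap1 and Tapbp fell and Tap2, B2m, Psmb10 and Psme2 did not pass the test. A match describes letters in a window and says nothing of binding. The ISRE pattern asks for exact letters and spacing, so variant forms were not counted. For example, the letters gtttcacttct, which follow the NF-kB run in the RT1-A2 and RT1-CE11 windows, do not match it. The ISRE counts thus do not show that the other windows lack an interferon element.

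Levels below are log2 intensities relative to the 75th percentile of the array, so that 0 stands for that percentile, and they are compared between arrays for 1 probe and not between probes. A change is the difference of group means, exosome minus untreated, ± its standard error (SE), with n = 3 arrays per group. The p-values of limma were adjusted by the Benjamini-Hochberg method over all 20433 tested probes, and a gene is called at an adjusted p below 0.05. Of the members 35 genes (40 probes) were tested, 23 heavy chain genes and 12 loading and proteasome genes, and all 40 probes were well above background on all 6 arrays. The 6 untested genes RT1-M1-2, RT1-M1-4, RT1-M1-5, RT1-M2, RT1-M4 and RT1-M5 were well above background on at most 1 array. The share of gene spots well above background was 67.2% to 72.2% on the exosome arrays and 72.6% to 75.6% on the untreated arrays, and none was saturated. The headers give 1 scan for exosome 1 and exosome 2, another for exosome 3 and another for the 3 untreated arrays, so that scan and group cannot be told apart. Of the Leydig cell markers Insl3, Star, Hsd3b1 and Cyp11a1 were above background on all 6 arrays and Cyp17a1 on 5, while Lhcgr (the luteinizing hormone receptor) and Nr5a1 (a steroidogenic transcription factor) were above background on none.

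Heavy chain genes were lower in exosome-treated cells. Of 23 tested, 18 fell and 0 rose, 78.3% lower against 29.2% of all 10979 tested genes (14.6% of all genes rose). Their median change was −0.69, against −0.19 for all genes, and the 18 that fell lay between −0.43 and −1.23, that is at 74.5% to 42.6% of the untreated level. Among loading and proteasome genes 4 of 12 fell (33.3%, close to the 29.2% of all genes) and 0 rose, with a median change of −0.17. In 19 heavy chain genes all exosome arrays lay below all untreated arrays and in 0 they lay above, against 37.9% and 24.1% of all genes. The same held below for 5 and above for 1 of the 12 loading and proteasome genes. By probe, 21 of 28 tested heavy chain probes fell, against 31.0% of all probes. The genes were chosen by name with results of this comparison already known, so the counts are a description, and heavy chain probes may read several near-identical copies, so the 18 are not 18 independent findings. In bulk samples fewer cells of a type and less RNA per cell cannot be told apart.

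**Figure D1:**
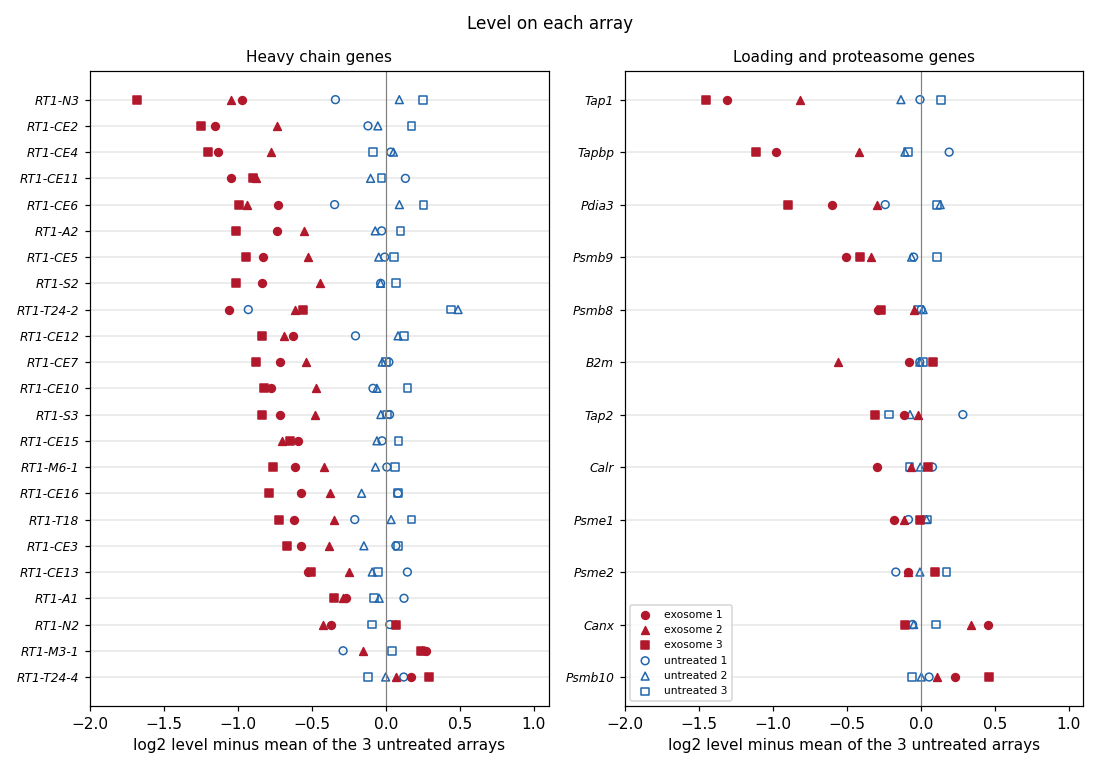
Level of each tested gene on each array, as the log2 level minus the mean of the 3 untreated arrays (x axis), for heavy chain genes (left) and loading and proteasome genes (right), ordered by change. Filled red symbols are the exosome arrays and open blue symbols the untreated arrays. In 19 heavy chain genes the red symbols lie left of all blue ones, whereas among loading and proteasome genes this holds for Tap1, Tapbp, Pdia3, Psmb9 and Psmb8.

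The classical genes gave 1 call of 2. RT1-A2 had levels of 3.78, 3.95 and 3.50 on the exosome arrays and 4.48, 4.44 and 4.61 on the untreated arrays, a fall of 0.77 (SE 0.15, adjusted p = 0.0131). RT1-A1 was read by 2 probes. The brighter one, which represents the gene, had 5.12, 5.10 and 5.04 on the exosome arrays and 5.52, 5.35 and 5.32 on the untreated arrays, a change of −0.30 ± 0.11 that missed the test (adjusted p = 0.0698). The groups did not overlap on it. The dimmer probe had 3.69, 3.85 and 3.51 on the exosome arrays and 4.26, 4.15 and 4.25 on the untreated arrays, a change of −0.54 ± 0.13 (adjusted p = 0.0203). The call for RT1-A1 thus depended on the probe.

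All 12 RT1-CE genes fell. The RT1-CE cluster holds class I genes away from the RT1-A region, many of them close copies of each other. RT1-CE2 had 3.49, 3.91 and 3.40 on the exosome arrays and 4.53, 4.59 and 4.82 on the untreated arrays, a change of −1.05 ± 0.17 (adjusted p = 0.0110). RT1-CE4 had 1.36, 1.71 and 1.29 on the exosome arrays and 2.52, 2.54 and 2.40 on the untreated arrays, a change of −1.03 ± 0.15 (adjusted p = 0.00988). RT1-CE11 had 1.56, 1.73 and 1.71 on the exosome arrays and 2.74, 2.50 and 2.58 on the untreated arrays, a change of −0.94 ± 0.12 (adjusted p = 0.00983). In these genes the lowest untreated array lay 0.61, 0.69 and 0.77 above the highest exosome array, and the exosome level was 48.4%, 48.8% and 52.1% of the untreated level. RT1-CE6, which the annotation lists as a long non-coding RNA, had −4.98, −5.19 and −5.24 on the exosome arrays and −4.60, −4.16 and −3.998 on the untreated arrays, a change of −0.89 ± 0.18, but −0.41 under quantile normalization, with normexp background correction and in the values of the authors. RT1-CE5 had 2.07, 2.38 and 1.95 on the exosome arrays and 2.89, 2.85 and 2.95 on the untreated arrays, a change of −0.77 ± 0.14. RT1-CE12 had −1.21, −1.27 and −1.42 on the exosome arrays and −0.79, −0.50 and −0.46 on the untreated arrays, a change of −0.72 ± 0.14.

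The other RT1-CE genes fell less. RT1-CE7 had 2.67, 2.85 and 2.52 on the exosome arrays and 3.41, 3.37 and 3.39 on the untreated arrays, a change of −0.71 ± 0.13. RT1-CE10 had −2.52, −2.21 and −2.56 on the exosome arrays and −1.83, −1.80 and −1.59 on the untreated arrays, a change of −0.69 ± 0.14. RT1-CE15 had −1.83, −1.94 and −1.88 on the exosome arrays and −1.26, −1.29 and −1.15 on the untreated arrays, a change of −0.65 ± 0.11. The highest exosome array of RT1-CE15 lay 0.53 below its lowest untreated array. RT1-CE16 had 3.77, 3.97 and 3.55 on the exosome arrays and 4.43, 4.18 and 4.43 on the untreated arrays, a change of −0.58 ± 0.15. RT1-CE3 had −0.95, −0.76 and −1.05 on the exosome arrays and −0.31, −0.53 and −0.30 on the untreated arrays, a change of −0.54 ± 0.13. RT1-CE13 had 0.08, 0.36 and 0.11 on the exosome arrays and 0.75, 0.52 and 0.55 on the untreated arrays, a change of −0.43 ± 0.14, the smallest fall of the cluster (adjusted p = 0.0440). In all 12 genes the groups did not overlap.

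The M, N, S and T genes were mixed, with 5 of 9 lower. RT1-N3 fell most, with −2.43, −2.50 and −3.14 on the exosome arrays and −1.80, −1.37 and −1.21 on the untreated arrays, a change of −1.23 ± 0.24 (adjusted p = 0.0135). RT1-S2 had 2.92, 3.31 and 2.74 on the exosome arrays and 3.72, 3.72 and 3.82 on the untreated arrays, a change of −0.76 ± 0.17. RT1-S3 had 2.30, 2.54 and 2.18 on the exosome arrays and 3.04, 2.98 and 3.03 on the untreated arrays, a change of −0.68 ± 0.13. Both S genes were thus lower on every exosome array. RT1-M6-1 had 3.28, 3.48 and 3.14 on the exosome arrays and 3.91, 3.83 and 3.96 on the untreated arrays, a change of −0.60 ± 0.13. RT1-T18 had 1.67, 1.94 and 1.57 on the exosome arrays and 2.08, 2.33 and 2.47 on the untreated arrays, a change of −0.56 ± 0.16. The remaining 4 genes did not pass the test, and the groups overlapped in each. RT1-T24-4 had 4.87, 4.77 and 4.99 on the exosome arrays and 4.82, 4.70 and 4.58 on the untreated arrays (0.18 ± 0.12, adjusted p = 0.283). RT1-M3-1, whose mouse counterpart presents N-formylated peptides, had a change of 0.12 ± 0.19 (adjusted p = 0.633), RT1-N2 one of −0.24 ± 0.16 and RT1-T24-2, listed as a long non-coding RNA, one of −0.74 ± 0.40 with untreated 1 far below the other untreated arrays. Without untreated 1 the change of RT1-T24-2 was −1.21 and passed the test (adjusted p = 0.0157).

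Many heavy chain genes shared the order of the exosome arrays. Exosome 3 was the lowest of the 6 arrays for 16 of 23 heavy chain genes (69.6%), against 30.5% of all genes, and exosome 2 was the highest of the 3 exosome arrays for 14 (60.9%), against 39.7%. The median deviation from the untreated mean was −0.72 on exosome 1, −0.48 on exosome 2 and −0.82 on exosome 3 for heavy chain genes. For loading and proteasome genes it was −0.24, −0.10 and −0.19 on the same arrays, and for all genes −0.19, −0.14 and −0.19. Over the 6 arrays, 18 of the other 27 heavy chain probes correlated with RT1-A2 at r above 0.9. The points share the group difference and, in part, a scan, so the values describe likeness only. After group means were taken out, 7 of the 27 still had r above 0.9, while RT1-N2 had −0.96, RT1-T24-4 −0.82, the dimmer probe of RT1-T18 −0.65 and that of RT1-CE2 −0.63. Over the 6 arrays RT1-T24-4 and RT1-M3-1 alone had negative r, −0.85 and −0.42.

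Probes of 1 gene did not always read alike. In the 5 heavy chain genes with 2 tested probes both probes had negative changes, and both passed the test in RT1-CE2 and RT1-S2 and 1 of them in RT1-A1, RT1-CE5 and RT1-T18. The changes of the 2 probes differed by 0.58 in RT1-CE2, 0.45 in RT1-CE5, 0.24 in RT1-A1, 0.16 in RT1-T18 and 0.02 in RT1-S2. The dimmer RT1-CE5 probe had −1.36, −1.18 and −1.47 on the exosome arrays and −0.89, −0.997 and −1.19 on the untreated arrays (−0.31 ± 0.14, adjusted p = 0.111), and its groups overlapped. In RT1-M6-1 the second probe was above background on none of the 6 arrays, although both are assigned to the same transcript, and the bright probe correlated with RT1-A2 at 0.97 within groups. The probe sequences were not analysed here, so which RT1 copies a probe reads was not tested.

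**Figure D2:**
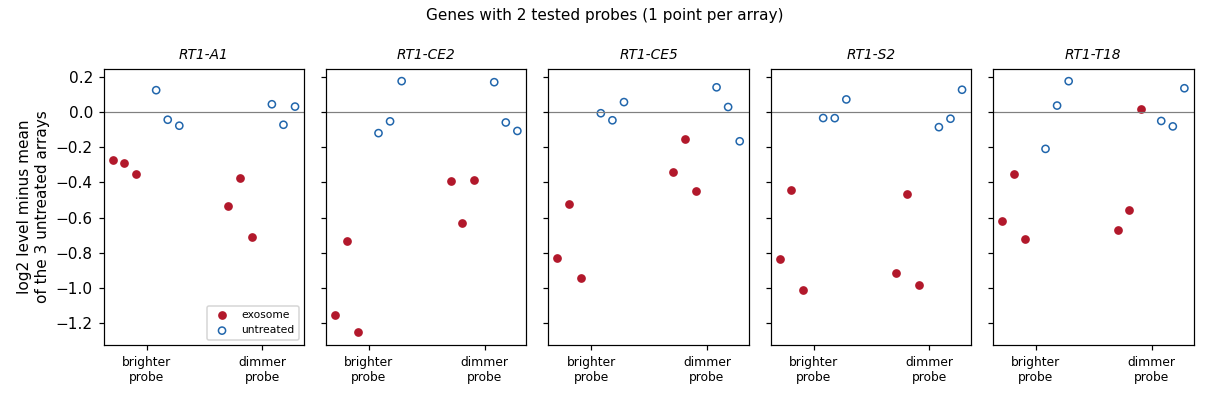
Heavy chain genes with 2 tested probes, each panel with its brighter probe left and its dimmer probe right. The y axis is the log2 level minus the mean of the 3 untreated arrays of that probe, filled red points are the exosome arrays and open blue points the untreated arrays. The 2 probes of RT1-S2 differ by 0.02 in their change and those of RT1-CE2 by 0.58.

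Of the transporter, Tap1 fell and Tap2 did not pass the test. Tap1 and Tap2 encode its subunits, which work as a pair. Tap1 had −4.92, −4.43 and −5.06 on the exosome arrays and −3.62, −3.75 and −3.47 on the untreated arrays, a change of −1.19 ± 0.19 (adjusted p = 0.0105) and 43.8% of the untreated level. It was −0.76 under quantile normalization and −0.65 with normexp. Tap2 had −0.93, −0.83 and −1.12 on the exosome arrays and −0.53, −0.88 and −1.02 on the untreated arrays, a change of −0.15 ± 0.17 (adjusted p = 0.493). The groups did not overlap for Tap1 and overlapped for Tap2. Tapbp, the gene of tapasin, which bridges transporter and heavy chain, had −1.50, −0.93 and −1.63 on the exosome arrays and −0.33, −0.62 and −0.60 on the untreated arrays, a change of −0.83 ± 0.21 (adjusted p = 0.0225). B2m, the light chain that every class I heavy chain needs to reach the surface, had 5.38, 4.89 and 5.53 on the exosome arrays and 5.44, 5.44 and 5.46 on the untreated arrays, a change of −0.18 ± 0.18 (adjusted p = 0.434). Its untreated arrays lay within 0.02 of each other, and exosome 2 alone lay well below them. Without exosome 2, the array on which most heavy chain genes were highest in the exosome group, the change of B2m was 0.0025.

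Of the chaperones of loading, Pdia3 fell and calreticulin and calnexin did not pass the test. Pdia3 had 0.70, 1.01 and 0.40 on the exosome arrays and 1.06, 1.43 and 1.41 on the untreated arrays, a change of −0.60 ± 0.19 (adjusted p = 0.0464), and only 0.05 separated the groups. Calr, a lectin chaperone of the loading complex, had a change of −0.10 ± 0.13 (adjusted p = 0.552). Canx, the membrane-bound lectin chaperone of newly made heavy chains, had a change of 0.23 ± 0.17 (adjusted p = 0.312).

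Of the immunoproteasome genes, 1 of 3 fell. Psmb8, Psmb9 and Psmb10 encode the inducible catalytic subunits that take the places of Psmb5, Psmb6 and Psmb7. Psmb9 fell, with 1.80, 1.97 and 1.89 on the exosome arrays and 2.26, 2.24 and 2.42 on the untreated arrays, a change of −0.42 ± 0.12 (adjusted p = 0.0305). Psmb8 had 0.97, 1.22 and 0.995 on the exosome arrays and 1.27, 1.28 and 1.24 on the untreated arrays (−0.20 ± 0.12, adjusted p = 0.206). Psmb10 had 4.31, 4.20 and 4.54 on the exosome arrays and 4.14, 4.09 and 4.02 on the untreated arrays (0.27 ± 0.13, adjusted p = 0.140). The groups did not overlap for these genes, with Psmb8 lower and Psmb10 higher on each exosome array, by gaps of 0.03 and 0.06. Of the constitutive counterparts Psmb7 fell by 1.04 (SE 0.17, adjusted p = 0.0105), while Psmb5 (−0.32 ± 0.11) and Psmb6 (−0.14 ± 0.12) did not pass the test. Psme1 and Psme2, subunits of the proteasome activator PA28, had changes of −0.10 ± 0.11 and −0.03 ± 0.14. Tap1 and Psmb9 are neighbours that start in opposite directions with 456 bases between their annotated starts, next to Tap2 and Psmb8. In this block of 4 genes the changes were −1.19, −0.42, −0.15 and −0.20 for Tap1, Psmb9, Tap2 and Psmb8.

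**Figure D3:**
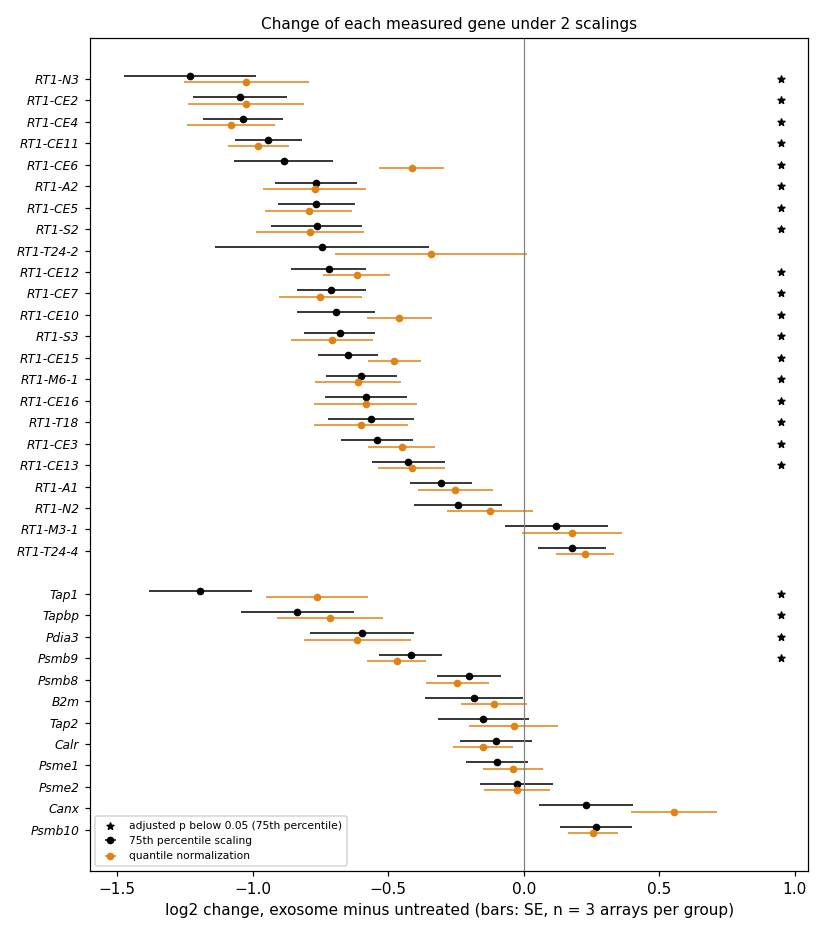
Change of each of the 35 tested genes (x axis, log2, exosome minus untreated, bars SE with n = 3 arrays per group) under scaling to the 75th percentile (black) and under quantile normalization (orange), heavy chain genes above and loading and proteasome genes below. Stars mark an adjusted p below 0.05 under the first scaling. Among heavy chain genes 18 carry a star and among loading and proteasome genes 4 do.

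The scaling of the arrays moved the changes of all genes, so the members were also read under quantile normalization, which moved the median change of all genes to 0.01 and under which 20.2% of all genes were higher and 16.1% lower. Under it 17 of 23 heavy chain genes were lower, with a median change of −0.60. The call lost was that of RT1-CE16 (−0.58, adjusted p = 0.057). The change of RT1-CE10 was −0.46 under it. In loading and proteasome genes 3 fell, Tap1 (−0.76), Tapbp (−0.71) and Psmb9 (−0.47), and Canx rose (0.55, adjusted p = 0.041). Median centring, which gave a median change of all genes of 0.04, left 13 heavy chain genes lower and, of the loading genes, Tap1 alone (−0.96), while 25.1% of all genes were higher and 16.9% lower. The 5 heavy chain calls lost under it, those of RT1-CE3, RT1-CE13, RT1-CE16, RT1-M6-1 and RT1-T18, had changes of −0.37 to −0.19, and RT1-CE15 (−0.42) and RT1-S3 (−0.45) passed with smaller changes. Under it Psmb10 rose (0.50, adjusted p = 0.039). All 18 heavy chain falls kept their sign under the 5 scalings tried and 13 of them passed the test in each.

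The calls depended on single untreated arrays, as did those of all genes. Without untreated 2, 4 of the 18 heavy chain falls passed the test, those of RT1-CE2, RT1-CE4, RT1-CE11 and RT1-CE15, and 7.47% of all genes were lower. The other 14 had changes of −1.19 to −0.47 in that fit, with adjusted p-values of 0.0509 to 0.104. Without untreated 3, the same 4 and RT1-CE7 passed, and 9.08% of all genes were lower. Without exosome 1, 11 passed, and 12.8% of all genes were lower. Tap1 passed in each fit that left out 1 array (−1.38 to −1.06), whereas Tapbp (−1.04 to −0.70), Pdia3 (−0.75 to −0.45) and Psmb9 (−0.46 to −0.36) each missed the test without exosome 1, exosome 3, untreated 2 or untreated 3. Without exosome 3, which alone has its own scan, 14 of the 18 heavy chain falls passed, and 21.7% of all genes were lower.

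**Figure D4:**
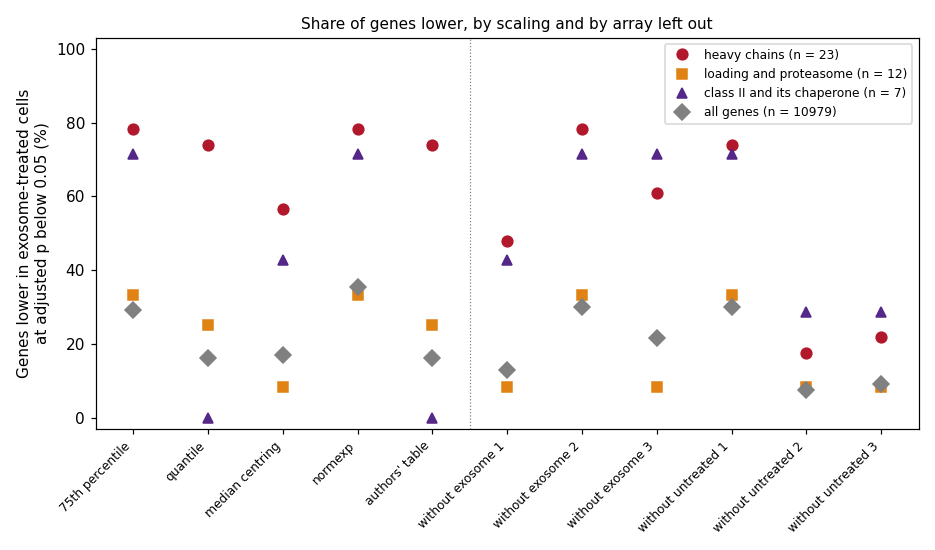
Share of tested genes lower in exosome-treated cells at an adjusted p below 0.05 (y axis, %) under 5 scalings (left of the dotted line) and with 1 array left out (right of it), for heavy chain genes (red circles), loading and proteasome genes (orange squares), class II genes with Cd74 and Ciita (purple triangles) and all genes (grey diamonds). Heavy chain genes lie above all genes in each setting shown, from 78.3% against 29.2% to 17.4% against 7.47%, and 0 class II genes are lower with quantile normalization or the values of the authors.

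Class II genes, whose products display peptides taken up from outside the cell, were read in the same way. Of 11 genes of class II and its chaperone 7 were tested, and 5 fell and 0 rose with 75th percentile scaling. That is 71.4% lower, near the 78.3% of heavy chain genes, against 29.2% of all genes (14.6% of all genes rose). The changes were −0.82 ± 0.14 for RT1-DOb, −0.67 ± 0.12 for RT1-Bb, −0.67 ± 0.14 for RT1-DMb, −0.60 ± 0.13 for RT1-DMa and −1.0998 ± 0.23 for Cd74, the invariant chain. Under quantile normalization 0 of the 7 passed the test, with changes of −0.32, −0.35, −0.37, −0.30 and −0.67 for these 5 genes. RT1-DOb passed in each fit that left out 1 array. RT1-Bb missed the test without untreated 2 (−0.73 to −0.61 over these fits), Cd74 without untreated 3 (−1.32 to −0.89), and RT1-DMa and RT1-DMb without exosome 1, untreated 2 or untreated 3. Ciita, the transactivator of class II genes, was above background on 1 array.

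Of 18 tested genes that act on class I transcription 3 rose (16.7%, against 14.6% of all genes) and 7 fell (38.9%, against 29.2%). Under quantile normalization 3 rose and 4 fell, and under median centring 3 rose and 3 fell. Stat2, a signal carrier of interferon receptors, rose by 0.54 ± 0.16, and Ifngr2, a chain of the interferon-gamma receptor, by 0.54 ± 0.15. Ifngr1, its ligand-binding chain, had a change of −0.88 ± 0.15 (adjusted p = 0.0112) and Nfyc, a subunit of the factor that binds the Y box, one of −1.12 ± 0.20 (adjusted p = 0.0114). The falls of Ifngr1 and Nfyc passed in each fit that left out 1 array. Stat2 (0.45 to 0.69) and Ifngr2 (0.45 to 0.64) missed the test without exosome 1, exosome 3, untreated 2 or untreated 3, and Stat2 also without exosome 2.

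Shares lower in the other lists lay on both sides of the 29.2% of all genes. Of 6 constitutive proteasome counterparts 2 fell (33.3%), Psmb7 and the activator Psme3 (−0.56 ± 0.12, but −0.13 under quantile normalization). Psme3 missed the test without exosome 1, untreated 2 or untreated 3 (−0.60 to −0.49). Of 5 tested class I-like molecules 2 fell (40.0%): Fcgrt, the neonatal Fc receptor, which also pairs with B2m (−0.72 ± 0.16), and Procr, the endothelial protein C receptor (−0.79 ± 0.23, and −0.35 under quantile normalization, adjusted p = 0.179). Fcgrt (−0.84 to −0.61) and Procr (−1.01 to −0.65) missed the test without exosome 1, untreated 2 or untreated 3, and Procr also without exosome 3. Of 13 tested genes of peptide trimming and glycoprotein quality control 2 rose (15.4%) and 1 fell (7.69%), and under quantile normalization 4 rose and 1 fell. Npepps, a cytosolic aminopeptidase, rose by 0.99 ± 0.23 and Hspa5, the chaperone BiP, by 0.39 ± 0.12, and Sec61a1, a channel subunit of the endoplasmic reticulum, had a change of −0.70 ± 0.12 (−0.39 under quantile normalization, adjusted p = 0.034). Sec61a1 passed in each fit that left out 1 array, while Npepps (0.82 to 1.22) and Hspa5 (0.31 to 0.44) missed it without exosome 1, exosome 3, untreated 2 or untreated 3, and Hspa5 also without untreated 1.

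Markers of other cells that carry class I were read beside these genes. The summed linear signal of 10 macrophage markers, in multiples of the 75th percentile of the array, was 10.5 to 21.5 on the exosome arrays and 22.7 to 24.0 on the untreated arrays, and 3 of the 10 fell (Adgre1, C1qa and C1qc) and 0 rose (30.0% lower, close to the 29.2% of all genes). Its low end came from Cd68, whose probe read −3.45 on exosome 3 against 3.15 or more on every other array, and without Cd68 the sums were 10.4 to 11.3 on the exosome arrays and 12.5 to 13.6 on the untreated arrays. Single markers were left out of a sum after the values were seen. For 6 tested lymphocyte markers, of which Cd3d and Cd8a fell (33.3%), the sums were 0.348 to 0.423 on the exosome arrays and 0.491 to 0.554 on the untreated arrays, with Cd3e above background on no array. For 5 endothelial markers they were 1.23 to 1.53 on the exosome arrays and 0.907 to 1.06 on the untreated arrays, with Tek above background on no array, and 2 rose (Pecam1 and Kdr) and 3 fell (Cdh5, Esam and Eng). Pecam1 set the direction of this sum: the other 4 markers summed to 0.374 to 0.406 on the exosome arrays and 0.451 to 0.491 on the untreated arrays. For 4 Sertoli cell markers they were 12.97 to 15.02 on the exosome arrays and 20.6 to 28.1 on the untreated arrays, with 1 higher (Wt1) and 2 lower (Clu and Inha), and Amh and Gata1 were above background on no array. Without Clu the Sertoli cell sums overlapped, with 4.17 to 5.58 on the exosome arrays and 4.34 to 5.07 on the untreated arrays. The 5 tested Leydig cell markers summed to 74.4 to 88.1 on the exosome arrays and 75.6 to 84.8 on the untreated arrays, and 1 of them fell (Cyp11a1). Hsd3b1 and Star, with log2 levels of at least 5.6 and 4.4 on every array, carried this sum. Insl3, Cyp11a1 and Cyp17a1 lay at 0.55 or less and hardly entered it. Of the 5 changes 4 were negative. Under quantile normalization 2 macrophage (C1qa and C1qc), 0 lymphocyte, 1 endothelial (Esam) and 2 Sertoli cell markers (Clu and Inha) were lower, and those higher included Ptprc, Pecam1, Kdr and Wt1. The part of these cells in the fall of the heavy chain genes was not tested.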

How the data were processed

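RNA of 3 exosome-treated and 3 untreated samples of rat Leydig cells was measured. Per the file headers the array files hold fluorescence intensities from Agilent Feature Extraction 11.0.1.1 (also named in the submitters' processing notes), with the processed intensity corrected within an array and not between arrays. The authors' deposited table holds log2 values whose columns share a median of 5.69, so it was taken as normalized between arrays, and it served as an alternative. Its method is not given in the sources used here.

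Spots marked as non-uniform or population outliers (388 to 572 gene spots per array) were left out. Log2 values were averaged over the spots of a probe, and the 75th percentile of each array (860 to 1061 intensity units on exosome arrays, 753 to 872 on untreated arrays) was subtracted. Of 30367 probes, 20433 were well above background on at least 3 of 6 arrays and were tested. Symbols came from RefSeq accessions (18005 probes). A gene is represented by its tested probe of highest mean signal. limma 3.58.1 in R 4.3.3 fitted both groups in 1 model (prior degrees of freedom 2.6), after a check on simulated data. Python 3.11.15 did the rest. The number of arrays limits the precision.

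All members are named, with values on every array for those past the test and, whatever their test, for Tap1, Tap2, Tapbp, B2m, Psmb8, Psmb9 and Psmb10, and of each list the 2 of smallest p in each direction. RT1-A1 and RT1-T24-4 were given by array, and other genes named, after their values were seen. Some genes counted in the lists are not reported here by name. Members and lists were chosen with earlier results of these data known. Alternatives were normexp (offset 50, on spot medians), quantile, median centring, the authors' table, other filters, replicate and scan blocks, the dimmest probe, and leaving out each array.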

Additional observations from a re-analysis of the deposited data

How the results depend on the processing

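Of 35 members, 22 were lower and 0 higher at an adjusted p below 0.05. Under median centring 14 were lower and 1 higher (loading and proteasome genes 1 and 1). Quantile normalization, like the values of the authors, gave 1 higher member, the loading gene Canx. Without a filter on dim probes, and with the replicate number as a block, 2 loading and proteasome genes were lower in place of 4. The replicate block left 16 members and 14 heavy chain genes lower. Same-numbered arrays did not deviate together (r of −0.09, −0.03 and −0.02), which gives no sign of pairing. With 3 arrays per group, each centred on its group mean, such values cannot show that the samples are unpaired. With the scan as a random block (consensus correlation 0.109) 20 members were lower, 17 of them heavy chain genes. Of all genes 24.7% were lower in that fit. No scan holds arrays of both groups, so the fit cannot separate scan from treatment. With 1 array left out, members lower ranged from 5 to 22, heavy chain genes from 4 to 18 and loading and proteasome genes from 1 to 4, and 0 members were higher in each of these fits. Over all genes the count lower was 3208, against 1766 under quantile normalization, 1405 without exosome 1, 820 without untreated 2 and 997 without untreated 3.

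Signs turned only in members that missed the test. Under median centring the changes were 0.047 for B2m, 0.13 for Calr, 0.030 for Psmb8, 0.13 for Psme1, 0.21 for Psme2 and 0.082 for Tap2. With 1 array left out they ranged from −0.32 to 0.0025 for B2m, −0.024 to 0.26 for RT1-M3-1 and −0.11 to 0.061 for Psme2. Of all single-gene values under an alternative, 400 kept direction and call, 79 lost the call, 5 gained one and 11 turned sign. The cause was not tested. The 6 heavy chain genes well above background on at most 1 array give no information on a change.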
